A study of Mus musculus with 9 samples.

Results

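Oxidative phosphorylation was read from 103 probe sets of 75 genes, out of 12422 probe sets on the array that are not controls. A probe set is a group of short probes designed against 1 transcript. Members were the probe sets whose single gene symbol begins with the family names of the respiratory chain subunits (Ndufa, Ndufb, Ndufc, Ndufs, Ndufv, Sdha to Sdhd, Uqcr, Cox4 to Cox8, Atp5) or is Cyc1 or Cycs. The choice used gene names and no measured values, although the gene group was proposed with earlier results of these data known. Of the 103, 81 probe sets of 69 genes were bright enough to be tested: 30 for complex I, 4 for complex II, 9 for complex III, 1 for cytochrome c, 14 for complex IV, 19 for complex V and 4 for assembly factors that share the family names (Ndufaf1, Ndufaf4, Sdhaf1, Sdhaf2). The other 22 had signals between 2.6 and 195.6 and were not tested, which left Atp5j2, Cox5a, Cox6b2, Cox8a, Ndufa12 and Ndufc2 with no tested member. A further 10 probe sets, among them those for Cox7c, Ndufs5, Ndufs6, Ndufa11 and Ndufb4, carry several gene symbols in the platform annotation and were left out.

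The RNA came from both ventricles of female mice aged 3 months, 1 mouse per array and 3 arrays per group. All 3 groups carry a transgene that overexpresses the insulin-like growth factor 1 receptor (IGF1R). The first group, IGF1R, carries that transgene alone and is the reference here. The second, IGF1R-caPI3K, also carries constitutively active phosphoinositide 3-kinase (p110), and the third, IGF1R-dnPI3K, carries the dominant negative form of that kinase. Neither the labels nor the table name the promoter behind each transgene. Mice with a kinase transgene alone and non-transgenic littermates, which the labels also name, were not analysed here, so every change below is relative to a heart that already overexpresses the receptor.

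The respiratory chain passes electrons from NADH through complex I, or from succinate through complex II, to ubiquinone, then through complex III and cytochrome c to complex IV, which reduces oxygen. Complexes I, III and IV pump protons across the inner mitochondrial membrane, and complex V, the ATP synthase, uses the return of those protons to make ATP. Heart muscle depends on this pathway for most of its ATP, and the nuclear-encoded subunits are among the most abundant messenger RNAs of the ventricle. The members are all encoded in the nucleus. The subunits of complexes I, III, IV and V that mitochondrial DNA encodes were looked for, and 0 probe sets carry their names.

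Nuclear respiratory factor 1 (NRF-1), the ETS factor GABP and the estrogen-related receptors are textbook regulators of these genes. A core motif of each was searched on both strands in promoter windows from RefSeq (GRCm38.p6), which run from 250 bases before to 50 bases after the annotated start: GCGCATGC for NRF-1, CGGAAGT for ETS factors and AAGGTCA for estrogen-related receptors. GCGCATGC is nearly a palindrome, so its matches on both strands can overlap. Of the 75 member genes, 61 had at least 1 window, 66 windows in all. The NRF-1 core was present in 16.7% of the 66 windows against 2.71% of all 32851 windows, the ETS core in 15.2% against 6.42%, and the estrogen-related receptor core in 7.58% against 4.72%. A match is a run of letters and not a measured binding site. The 4 windows printed here each hold a core and run over 300 bases from 5′ to 3′ on the gene's own strand with the matched letters in capitals. They belong to the members that moved in one direction on both scales described below: Cycs, which was lower in IGF1R-dnPI3K hearts, and Cox6a1, Uqcrh and the brighter probe set of Atp5l, which were higher there. In Cycs (chr6:50566520-50566819, minus strand) the NRF-1 core begins at position -60 from the start. In Cox6a1 (chr5:115348909-115349208, minus strand) matches on the 2 strands begin at -162 and -160 and overlap. In Uqcrh (chr4:116075021-116075320, minus strand) the ETS core begins at -11. In Atp5l (chr9:44920693-44920992, minus strand) an NRF-1 core begins at -240 and an estrogen-related receptor core at -13.
Cycs: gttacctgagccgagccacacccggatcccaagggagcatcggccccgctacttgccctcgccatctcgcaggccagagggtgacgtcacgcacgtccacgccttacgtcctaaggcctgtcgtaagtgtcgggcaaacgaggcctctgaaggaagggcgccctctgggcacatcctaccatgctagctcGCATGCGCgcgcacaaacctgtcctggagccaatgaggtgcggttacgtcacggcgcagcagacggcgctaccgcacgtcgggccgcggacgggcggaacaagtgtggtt
Cox6a1: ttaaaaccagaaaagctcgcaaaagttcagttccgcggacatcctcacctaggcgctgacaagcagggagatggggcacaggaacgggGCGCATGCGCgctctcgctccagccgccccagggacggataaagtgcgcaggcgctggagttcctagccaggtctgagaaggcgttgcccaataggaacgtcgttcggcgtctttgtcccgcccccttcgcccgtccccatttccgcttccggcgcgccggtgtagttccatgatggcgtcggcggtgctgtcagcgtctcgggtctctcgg
Uqcrh: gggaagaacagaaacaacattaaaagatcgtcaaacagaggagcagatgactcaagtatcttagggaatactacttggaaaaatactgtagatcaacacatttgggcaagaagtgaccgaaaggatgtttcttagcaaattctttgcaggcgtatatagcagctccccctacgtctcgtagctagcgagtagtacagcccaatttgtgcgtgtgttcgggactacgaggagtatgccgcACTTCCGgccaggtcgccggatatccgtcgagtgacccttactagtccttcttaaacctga
Atp5l: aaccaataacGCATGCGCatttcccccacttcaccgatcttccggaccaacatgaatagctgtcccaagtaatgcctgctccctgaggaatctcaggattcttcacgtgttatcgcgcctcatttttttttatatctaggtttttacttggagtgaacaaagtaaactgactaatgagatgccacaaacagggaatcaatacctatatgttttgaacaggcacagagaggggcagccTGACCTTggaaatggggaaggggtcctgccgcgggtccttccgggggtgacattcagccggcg
Cores were found in windows of genes that moved in opposite directions. Of the 12 genes with a window among those higher on both scales in IGF1R-dnPI3K, 2 held an NRF-1 core (Cox6a1 and Atp5l), 1 an ETS core (Uqcrh) and 3 an estrogen-related receptor core (Atp5l, Ndufb2 and Atp5e). These are 14.3%, 7.14% and 21.4% of their 14 windows, beside 16.7%, 15.2% and 7.58% of all member windows. Among 5 genes with a window that were lower there after quantile normalization, 2 held an NRF-1 core (Cycs and Atp5l). In that set 0 held an ETS core and 1 an estrogen-related receptor core (Atp5l). Atp5l is in both sets because its probe sets moved in opposite directions.

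The deposited signals had been brought to a common level, with a trimmed mean of 500.3 to 500.4 on every array, but the arrays kept different spreads. The third IGF1R-dnPI3K array stood apart: its highest signal was 42449 against 21815 to 26565 on the other 8 arrays, and its mean correlation with the other arrays was 0.927 against 0.947 to 0.956. The ratio of signals for the 3′ and 5′ ends of pyruvate carboxylase (Pcx), a measure of RNA integrity, was 3.25 on that array and 1.40 to 2.11 on the others. The 3′ to 5′ signal ratio of Gapdh lay between 0.747 and 0.818 for the IGF1R group and between 0.843 and 0.943 for the remaining 6 arrays, and that of a spiked-in hybridization control (CreX) was 1.05 to 1.26 against 1.74 to 1.89. These ratios separate the IGF1R group from both others, so group and array processing cannot be told apart in any comparison with IGF1R. Because of the different spreads, each comparison is given on the deposited scale and again after quantile normalization, which gives all arrays the same distribution of signals. The members are bright: 64 of the 81 lie among the brightest 25% of the probe sets tested.

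With all 9 arrays setting the spread, more members passed the test in hearts with dominant negative PI3K than in those with active PI3K, and the subunits did not move as a block. That order depended on the fit: with only the 6 arrays of each comparison, fewer members passed with dominant negative PI3K than with active PI3K. The order over all probe sets turned in the same way, so it is not particular to the members. On the deposited scale with 9 arrays, 5.70% of all were higher and 7.80% lower with dominant negative PI3K, against 0.152% and 0.0633% with active PI3K. With 6 arrays the shares were 0.957% and 0.839% against 4.32% and 5.39%. On the deposited scale, 29 of 81 members (35.8%) were higher and 3 (3.70%) were lower in IGF1R-dnPI3K, whereas 5.70% of all 7898 probe sets tested were higher and 7.80% lower (limma, Benjamini-Hochberg adjusted p under 0.05). With the series of mouse numbers as a block, too few IGF1R-dnPI3K arrays inform this comparison, so its counts are not given. After quantile normalization and without that block 15 members (18.5%) were higher and 8 (9.88%) lower, against 6.22% and 6.46% of all probe sets. The median log2 change of the members was 0.28 on the deposited scale and 0.06 after quantile normalization, beside -0.09 and 0.00 over all probe sets tested. Among the brightest 25% of all probe sets, 15.2% were higher and 8.10% lower on the deposited scale, and 11% and 11.3% after quantile normalization. Both scales called the same direction for 18 members: 15 higher (Ndufb2, Ndufb7, Ndufa5, Ndufa7, Ndufv1, Ndufv3, Cyc1, Uqcrq, Uqcrh, Uqcr10, Cox6a2, Cox6a1, Atp5e, Atp5o and Atp5l) and 3 lower (Cycs, Cox7b and a dim probe set for Atp5l). A further 14 were higher on the deposited scale only and 5 were lower after quantile normalization only.

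**Figure D1:**
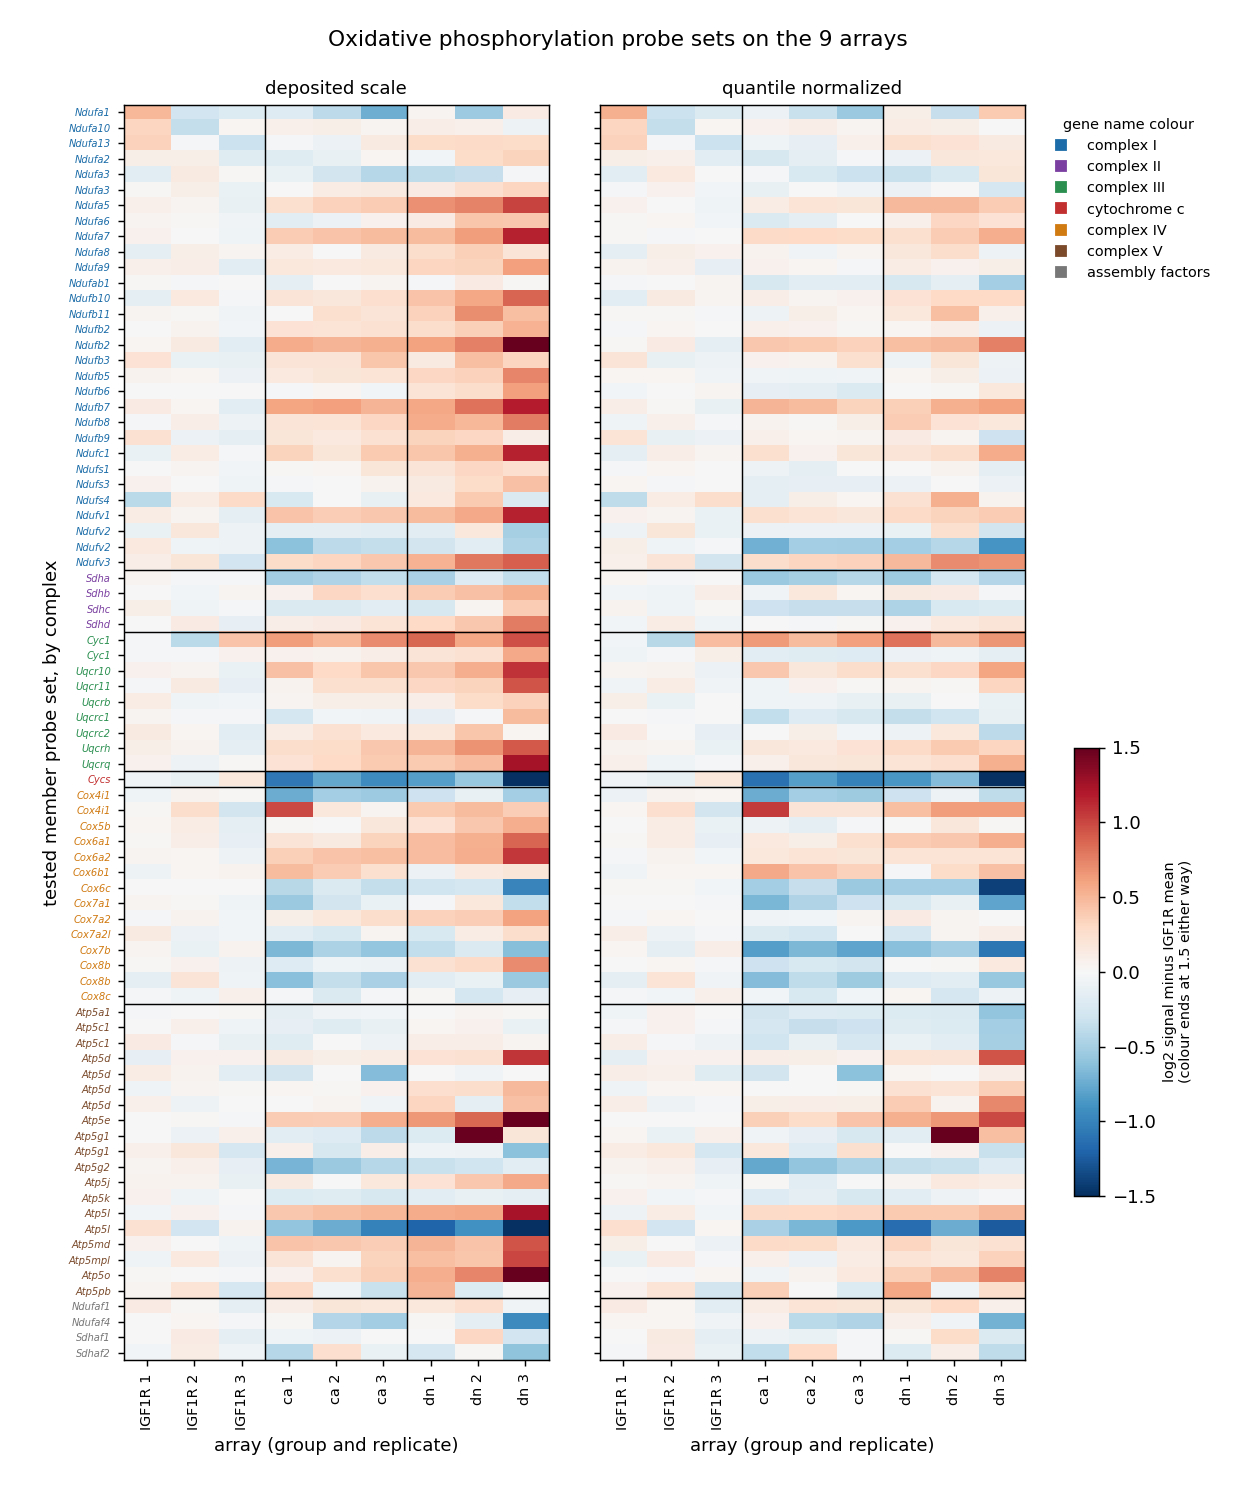
Each row is 1 of the 81 tested member probe sets and each column 1 array, with colour giving the log2 signal minus the mean of the 3 IGF1R arrays on the deposited scale (left) and after quantile normalization (right). The third IGF1R-dnPI3K array is the highest of all 9 for 42 of the 81 members on the deposited scale, and rows such as Cycs and Cox7b are lower than IGF1R in both PI3K groups on both scales.

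The third IGF1R-dnPI3K array was often the extreme one on the deposited scale. It gave the highest signal of its group for 46 of the 81 members and the lowest for 23, and its ratio to the mean of the other 2 arrays of the group ran from 0.48 (Cycs) to 1.87 (Atp5o), with a median of 1.15. Without it, 25 members were higher on the deposited scale, all 25 among the 29, and 3 were lower, of which 2 were among the earlier 3, against 4.01% and 4.36% of all probe sets. The 4 higher calls lost were Ndufa9, Cox5b, Atp5j and the dimmer probe set of Cyc1. After quantile normalization without that array, 13 were higher and 7 lower, of which 12 and 6 were shared with the fit on all arrays, against 2.86% and 3.45%. The counts fell further when an IGF1R array was left out, to 6, 8 and 2 higher without replicates 1, 2 and 3 and to 0, 1 and 0 lower. These counts are given without the shares of all probe sets, so they do not show whether members fell more than the rest. With the IGF1R-caPI3K arrays left out of the fit, 5 were higher and 1 lower on the deposited scale, against 0.957% and 0.839% of all probe sets, and 7 and 4 after quantile normalization, against 2.16% and 2.11%.

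**Figure D2:**
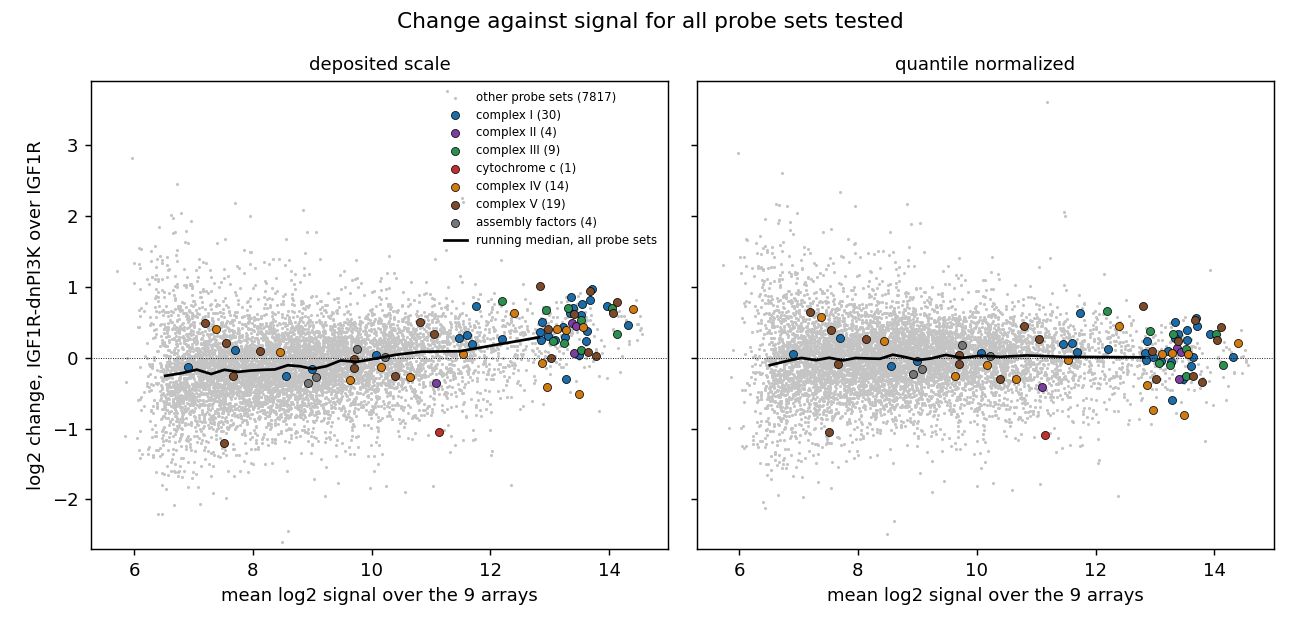
The log2 change in IGF1R-dnPI3K over IGF1R is plotted against the mean log2 signal for the 7898 probe sets tested, with the members coloured by complex and a running median over all probe sets in black. On the deposited scale the running median climbs with signal and the members sit at its bright end, whereas after quantile normalization it stays near 0 and the members spread to both sides.

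Complex I, the NADH dehydrogenase, had 13 of 30 probe sets higher and 0 lower in IGF1R-dnPI3K on the deposited scale, with a median log2 change of 0.31. After quantile normalization 6 were higher and 1 lower, with a median of 0.08. Ndufv1, the subunit that binds NADH and the flavin, had signals of 13246, 12673 and 11070 in the IGF1R hearts, 16484, 15877 and 16214 with active PI3K, and 17050, 18168 and 27424 with dominant negative PI3K. Every heart of both PI3K groups lay above every IGF1R heart. The log2 change in IGF1R-dnPI3K was 0.73 ± 0.16 (SE, adjusted p = 0.0202) on the deposited scale and 0.33 ± 0.07 (adjusted p = 0.0169) after quantile normalization. Ndufv2, an iron-sulfur subunit that sits beside Ndufv1 in the same module, went the other way. Its brighter probe set gave 13031, 11250 and 11240 in IGF1R, 7736, 9027 and 9256 in IGF1R-caPI3K and 9734, 10609 and 8545 in IGF1R-dnPI3K, so that neither PI3K group overlapped with IGF1R. Its log2 change in IGF1R-dnPI3K was -0.30 ± 0.12 (adjusted p = 0.108) on the deposited scale and -0.60 ± 0.12 (adjusted p = 0.0142) after quantile normalization. A second, dimmer probe set for Ndufv2 gave -0.16 ± 0.17 and -0.04 ± 0.15 and passed on neither scale. Ndufv3, an accessory subunit of that module, gave 2875, 3059 and 2212 in IGF1R and 3848, 4658 and 4997 in IGF1R-dnPI3K, a log2 change of 0.73 ± 0.14 (adjusted p = 0.0161) and 0.62 ± 0.12 (adjusted p = 0.0153) on the 2 scales.

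Most of the complex I subunits tested are accessory subunits, which surround the catalytic core and are needed for its assembly and stability. Ndufb7, an accessory subunit of the membrane arm, gave 8248, 7710 and 6799 in IGF1R, 11379, 11564 and 10775 in IGF1R-caPI3K and 11266, 13329 and 17147 in IGF1R-dnPI3K. All 6 hearts with a PI3K transgene exceeded all IGF1R hearts. The log2 change in IGF1R-dnPI3K was 0.86 ± 0.14 (adjusted p = 0.0112) on the deposited scale and 0.50 ± 0.09 (adjusted p = 0.0113) after quantile normalization. Ndufa5, an accessory subunit of the matrix arm, gave 10598, 10314 and 9295 in IGF1R, 11866, 12754 and 13084 in IGF1R-caPI3K and 16187, 16890 and 20260 in IGF1R-dnPI3K, and its 3 groups did not overlap. It rose in IGF1R-dnPI3K by 0.82 ± 0.11 (adjusted p = 0.00733) and 0.45 ± 0.07 (adjusted p = 0.00632) in log2 on the 2 scales. Ndufa7 gave 9432, 9108 and 8626 in IGF1R and 12603, 13955 and 20150 in IGF1R-dnPI3K, with log2 changes of 0.75 and 0.39. A Ndufb2 probe set that may match several transcripts gave 9642, 10383 and 8389 in IGF1R and 14367, 15883 and 27655 in IGF1R-dnPI3K, with log2 changes of 0.97 and 0.56. The second Ndufb2 probe set changed by 0.38 on the deposited scale (adjusted p = 0.0281) and by 0.01 after quantile normalization. Ndufc1, Ndufb10, Ndufb8, Ndufb11, Ndufb5 and Ndufa9 were likewise higher on the deposited scale only. Ndufs1, the largest core subunit, and Ndufab1, the mitochondrial acyl carrier protein, passed on neither scale, with log2 changes of 0.25 and -0.03 for Ndufs1 and 0.04 and -0.30 for Ndufab1.

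Complex II, succinate dehydrogenase, split between its subunits. Sdha, the flavoprotein that oxidizes succinate, gave 2696, 2582 and 2588 in IGF1R, 1825, 1910 and 2026 in IGF1R-caPI3K and 1865, 2291 and 2031 in IGF1R-dnPI3K. Both PI3K groups lay wholly below IGF1R. In IGF1R-dnPI3K the log2 change was -0.35 ± 0.11 (adjusted p = 0.0521) on the deposited scale and -0.41 ± 0.10 (adjusted p = 0.0274) after quantile normalization. Without the third IGF1R-dnPI3K array that call was lost (-0.39, adjusted p = 0.0535). Sdhb, the iron-sulfur subunit, gave 9573, 9298 and 9830 in IGF1R and 12489, 12968 and 13864 in IGF1R-dnPI3K without overlap. Sdhb was higher by 0.45 ± 0.10 (adjusted p = 0.0189) on the deposited scale, but the change was 0.08 ± 0.09 (adjusted p = 0.575) after quantile normalization. Sdhd, a membrane anchor, gave 9197, 10014 and 8469 in IGF1R and 11309, 12138 and 15734 in IGF1R-dnPI3K, with 0.49 ± 0.13 (adjusted p = 0.0336) and 0.13 ± 0.08 (adjusted p = 0.256). For the other anchor, Sdhc, the direction depended on the scale. Its signals were 12000, 10749 and 11047 in IGF1R and 9561, 11551 and 14649 in IGF1R-dnPI3K, groups that overlap. The change was 0.06 ± 0.14 on the deposited scale, -0.10 there without the third IGF1R-dnPI3K array, and -0.30 ± 0.08 (adjusted p = 0.0416) after quantile normalization.

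Complex III, the cytochrome bc1 complex, had 4 of 9 probe sets higher and 0 lower in IGF1R-dnPI3K, the same count on both scales, with median log2 changes of 0.53 and 0.13. Uqcrh, the acidic hinge protein that helps cytochrome c dock to cytochrome c1, gave 8510, 8287 and 7274 in IGF1R, 9639, 9665 and 10617 in IGF1R-caPI3K and 11432, 12777 and 15179 in IGF1R-dnPI3K. The 3 groups did not overlap, and the change in IGF1R-dnPI3K was 0.70 ± 0.12 (adjusted p = 0.0117) and 0.33 ± 0.07 (adjusted p = 0.0196) on the deposited and quantile normalized scales. Uqcrq, a small subunit, gave 14000, 12792 and 13563 in IGF1R, 15567, 16580 and 17579 in IGF1R-caPI3K and 17632, 18576 and 32011 in IGF1R-dnPI3K. The value on the third IGF1R-dnPI3K array was 1.77 times the mean of the other 2, and without that array the change was 0.43 (adjusted p = 0.0125) on the deposited scale and 0.22 (adjusted p = 0.0683) after quantile normalization. Uqcr10, another small subunit, gave 6427, 6291 and 5713 in IGF1R and 8147, 8919 and 12991 in IGF1R-dnPI3K, a change of 0.68 ± 0.16 and 0.38 ± 0.11. Without the third array its change after quantile normalization was 0.28 (adjusted p = 0.0824). The core proteins Uqcrc1 and Uqcrc2 passed on neither scale, with log2 changes of 0.11 and 0.20 on the deposited scale and -0.25 and -0.10 after quantile normalization. Without the third IGF1R-dnPI3K array Uqcrc1 was lower after quantile normalization (-0.31, adjusted p = 0.028) but not on the deposited scale (-0.08, adjusted p = 0.609). The 2 probe sets for Cyc1, the cytochrome c1 heme protein, differed. The brighter one gave 15925, 15896 and 17049 in IGF1R and 18637, 19132 and 24178 in IGF1R-dnPI3K and passed on neither scale (0.33 and -0.10). The dimmer one, which may match several transcripts, gave 3340, 2574 and 4547 in IGF1R and 6179, 5074 and 6604 in IGF1R-dnPI3K and passed on both (0.80 ± 0.18 and 0.66 ± 0.18). Without the third IGF1R-dnPI3K array it passed on neither (0.72, adjusted p = 0.0548, and 0.64, adjusted p = 0.0971).

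Cytochrome c is the soluble electron carrier between complexes III and IV that also acts in cell death signalling when released from mitochondria. In IGF1R-dnPI3K it had the largest fall of the members on the deposited scale apart from the dim Atp5l probe set. After quantile normalization its fall there was the largest of all members, as it was in IGF1R-caPI3K on both scales. Cycs gave 3431, 3292 and 3947 in IGF1R, 1693, 2081 and 1850 in IGF1R-caPI3K and 2002, 2381 and 1058 in IGF1R-dnPI3K. All 6 hearts with a PI3K transgene were below all IGF1R hearts. In IGF1R-dnPI3K the log2 change was -1.05 ± 0.24 (adjusted p = 0.0240) on the deposited scale and -1.09 ± 0.23 (adjusted p = 0.0178) after quantile normalization, and without the third array, the lowest, it was -0.70 (adjusted p = 0.0144) and -0.75 (adjusted p = 0.0127). In IGF1R-caPI3K the change was -0.92 ± 0.24 (adjusted p = 0.103) and -0.99 ± 0.23 (adjusted p = 0.0656). After quantile normalization its IGF1R values were 3528, 3403 and 4110, the IGF1R-caPI3K values 1681, 2066 and 1820 and the IGF1R-dnPI3K values 1999, 2341 and 1099.

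**Figure D3:**
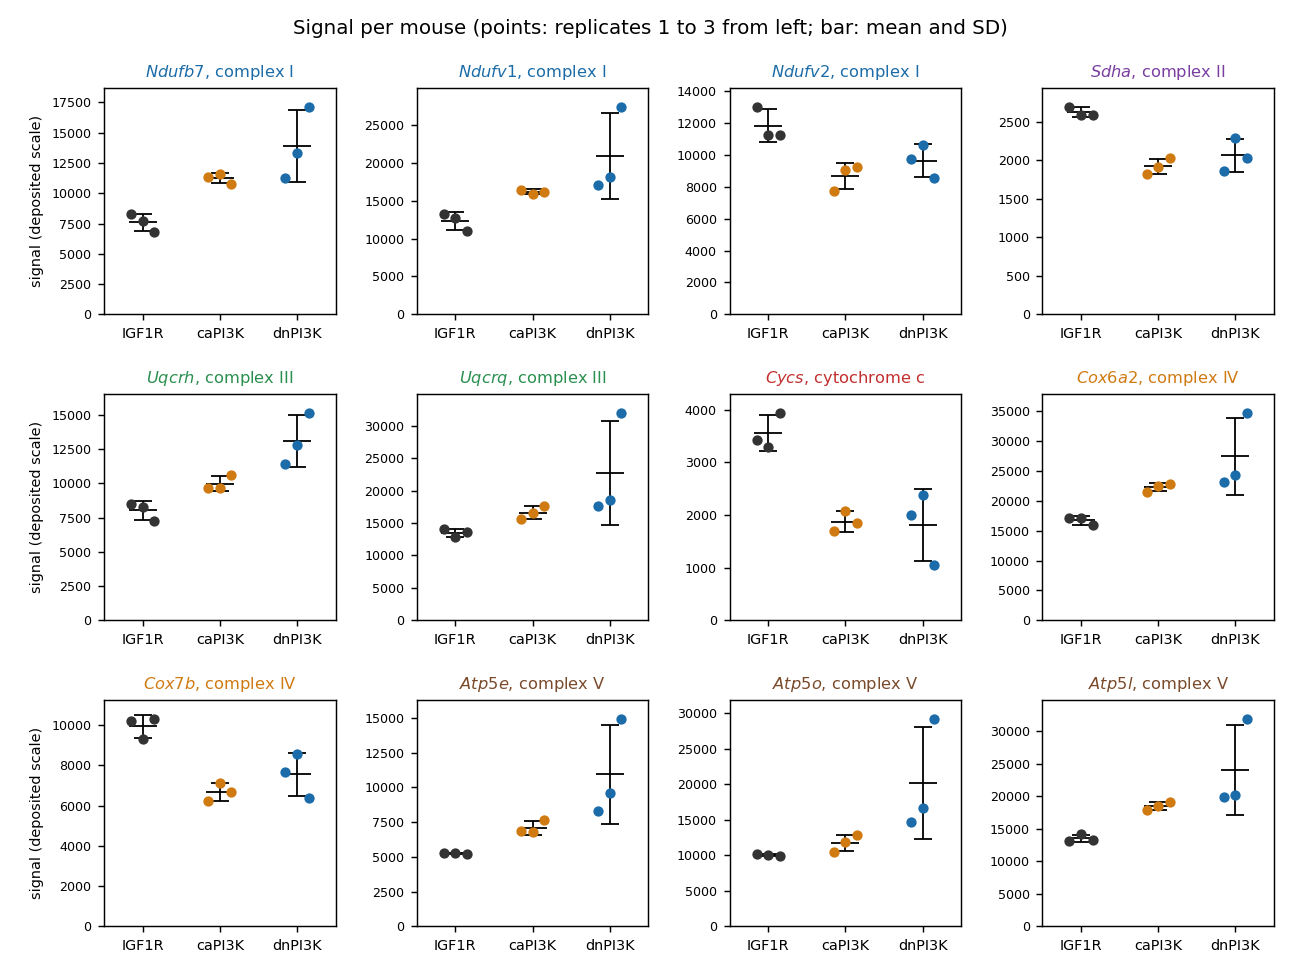
Deposited signal per mouse for 12 members in the 3 groups, with points for replicates 1 to 3 and the mean and SD (n = 3 per group) as bars; each axis starts at 0. Ndufv2, Sdha, Cycs and Cox7b lie below IGF1R in both PI3K groups, and the other 8 lie above it, with the third IGF1R-dnPI3K array highest for those 8.

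Complex IV, cytochrome c oxidase, had 4 of 14 probe sets higher and 1 lower on the deposited scale and 2 higher and 2 lower after quantile normalization, with medians of 0.06 and 0.01. Cox7b, a small subunit needed for the assembly and activity of the complex, gave 10214, 9292 and 10327 in IGF1R, 6236, 7126 and 6652 in IGF1R-caPI3K and 7668, 8570 and 6396 in IGF1R-dnPI3K. Neither PI3K group overlapped with IGF1R. The change in IGF1R-dnPI3K was -0.41 ± 0.12 (adjusted p = 0.0468) on the deposited scale and -0.74 ± 0.13 (adjusted p = 0.0105) after quantile normalization. Without the third array it was -0.29 (adjusted p = 0.0739) and -0.56 (adjusted p = 0.00968). Cox6c, whose probe set may match several transcripts, gave 13949, 14024 and 13823 in IGF1R, 10441, 11958 and 10862 in IGF1R-caPI3K and 11346, 11620 and 7019 in IGF1R-dnPI3K, again without overlap. Its change in IGF1R-dnPI3K was -0.52 ± 0.17 (adjusted p = 0.0649) and -0.81 ± 0.20 (adjusted p = 0.0260), and without the third array -0.28 (adjusted p = 0.0451) and -0.51 (adjusted p = 0.00899). Cox5b and Cox7a2 were higher on the deposited scale only, by 0.39 and 0.44, against 0.06 and 0.05 after quantile normalization.

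Several complex IV subunits have a heart and muscle isoform and a widely expressed one, and the arrays measured some of these pairs. Cox6a2, the heart and muscle form, gave 17161, 17067 and 15894 in IGF1R, 21460, 22399 and 22788 in IGF1R-caPI3K and 23089, 24368 and 34733 in IGF1R-dnPI3K, a change in IGF1R-dnPI3K of 0.69 ± 0.14 (adjusted p = 0.0168). It is so bright that quantile normalization assigned the value 22674 to it on all 3 IGF1R-dnPI3K arrays, and the change was then 0.21 ± 0.06 (adjusted p = 0.0405). Cox6a1, the widely expressed form, gave 4498, 4752 and 4071 in IGF1R, 5054, 4879 and 5601 in IGF1R-caPI3K and 6108, 6440 and 8126 in IGF1R-dnPI3K, with 0.63 ± 0.13 (adjusted p = 0.0165) and 0.44 ± 0.09 (adjusted p = 0.0171). Both isoforms of that pair were thus higher on both scales. For the other pair, Cox7a1, the heart and muscle form, gave 8401, 8285 and 7837 in IGF1R and 8060, 9083 and 6338 in IGF1R-dnPI3K, with changes of -0.08 ± 0.15 (adjusted p = 0.750) and -0.38 ± 0.16 (adjusted p = 0.135). Cox7a2, the widely expressed form, gave 10356, 10955 and 10263 in IGF1R and 13350, 13541 and 16014 in IGF1R-dnPI3K, which did not overlap. Of Cox8b, the muscle form of subunit VIII, 2 probe sets disagreed in sign on the deposited scale (0.41 for the brighter and -0.27 for the dimmer) and neither passed. Its widely expressed counterpart Cox8a was too dim to be tested.

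Complex V, the ATP synthase, had 6 of 19 probe sets higher and 1 lower on the deposited scale and 3 higher and 2 lower after quantile normalization, with medians of 0.21 and 0.24. These medians cover 19 probe sets of 13 genes, dim ones included. Each of the 6 that were higher on the deposited scale changed less after quantile normalization. Atp5e, the epsilon subunit of the central stalk, gave 5252, 5299 and 5197 in IGF1R, 6834, 6771 and 7653 in IGF1R-caPI3K and 8272, 9561 and 14958 in IGF1R-dnPI3K, with no overlap between the 3 groups. The change in IGF1R-dnPI3K was 1.01 ± 0.18 (adjusted p = 0.0136) and 0.72 ± 0.11 (adjusted p = 0.00612) on the 2 scales. Its probe set was treated as one that may match several transcripts. Atp5o, the subunit that ties the catalytic head to the outer stalk, gave 10118, 10077 and 9838 in IGF1R, 10486, 11819 and 12789 in IGF1R-caPI3K and 14624, 16678 and 29262 in IGF1R-dnPI3K. The active PI3K hearts lay between the other groups, and the change in IGF1R-dnPI3K was 0.94 ± 0.21 (adjusted p = 0.0204) and 0.53 ± 0.10 (adjusted p = 0.0113). Without the third IGF1R-dnPI3K array Atp5o changed by 0.64 (adjusted p = 0.00814) and 0.42 (adjusted p = 0.0142). Atp5l, a membrane subunit, gave 13091, 14163 and 13307 in IGF1R, 17935, 18430 and 19085 in IGF1R-caPI3K and 19801, 20223 and 31921 in IGF1R-dnPI3K, with 0.79 ± 0.16 (adjusted p = 0.0168) and 0.43 ± 0.07 (adjusted p = 0.00763). A second probe set that carries the same symbol and may match several transcripts was dim and went the opposite way. It gave 340, 238 and 302 in IGF1R and 127, 155 and 102 in IGF1R-dnPI3K, a change of -1.21 ± 0.23 (adjusted p = 0.0152) and -1.05 ± 0.22 (adjusted p = 0.0169). Atp5md, Atp5mpl and Atp5j were higher on the deposited scale only, by 0.63, 0.62 and 0.40. The catalytic alpha subunit Atp5a1 changed by 0.02 ± 0.08 on the deposited scale (adjusted p = 0.900) and by -0.34 ± 0.10 (adjusted p = 0.0493) after quantile normalization, a call lost without the third IGF1R-dnPI3K array (-0.22, adjusted p = 0.0649). The gamma subunit Atp5c1 passed on neither scale with either of its probe sets, and the 4 probe sets for the delta subunit Atp5d passed on neither.

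**Figure D4:**
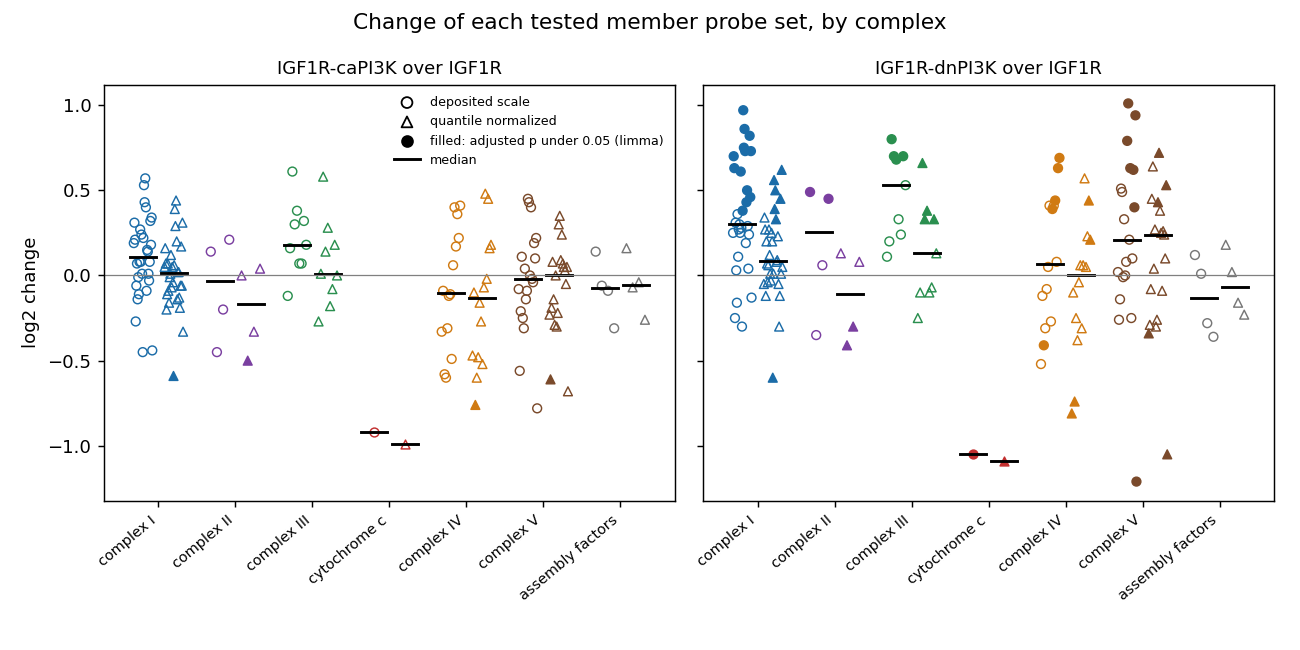
The log2 change of each tested member in IGF1R-caPI3K (left) and IGF1R-dnPI3K (right) over the same 3 IGF1R arrays is shown by complex, on the deposited scale (circles) and after quantile normalization (triangles), with filled symbols for an adjusted p under 0.05 and bars for medians. In IGF1R-dnPI3K the complex III median is 0.53 on the deposited scale and 0.13 after quantile normalization, and cytochrome c is at -0.92 (left) and -1.05 (right) on the deposited scale.

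With active PI3K, cytochrome c, Cox7b, Ndufv2 and Sdha lay below the IGF1R hearts on every array, as given above, and the accessory subunits Ndufb7 and Ndufa7 lay above them. None of these passed the test on the deposited scale when all 9 arrays set the spread: 0 of the 81 members were called in either direction. The background in IGF1R-caPI3K over IGF1R was low, with 0.152% of all probe sets higher and 0.0633% lower on the deposited scale, and 24 of the 81 members (29.6%) had an unadjusted p under 0.05 in limma, as had 18.4% of all probe sets. Among the brightest 25% of all probe sets that share was 26%, close to that of the members. After quantile normalization 4 members were lower and 0 higher, against 0.418% and 0.570% of all probe sets: Cox7b (-0.76 ± 0.13, adjusted p = 0.0366), Atp5g2, which encodes the c subunit of the ATP synthase rotor (-0.61 ± 0.12, adjusted p = 0.0435), Ndufv2 (-0.59 ± 0.12, adjusted p = 0.0476) and Sdha (-0.50 ± 0.10, adjusted p = 0.0476). Atp5g2 gave 1678, 1713 and 1500 in IGF1R and 1002, 1105 and 1211 in IGF1R-caPI3K. All 4 calls were lost when any IGF1R or IGF1R-caPI3K array was left out. The counts depended on the spread of the IGF1R-dnPI3K arrays, which enter the shared estimate. With the third of them left out, 11 members were higher and 9 lower on the deposited scale, against 3.11% and 3.92% of all probe sets, and 6 higher and 14 lower after quantile normalization, against 2.96% and 3.78%. With only the 6 arrays of the comparison in the fit, 14 were higher and 9 lower on the deposited scale, against 4.32% and 5.39% of all probe sets, and 6 and 14 after quantile normalization, against 3.99% and 5.15%. In that 6-array fit, whose calls were chosen after its values were seen, 8 members were lower on both scales (Ndufv2, Sdha, Cycs, Cox4i1, Cox6c, Cox7b, Cox8b and Atp5g2) and 6 were higher on both (Ndufa7, Ndufb2, Ndufb7, Cox6a2, Atp5e and Atp5l). These are the brighter probe sets of Ndufv2, Cox4i1, Ndufb2 and Atp5l, but the dimmer of Cox8b. The brighter Cox8b probe set changed by -0.11 (adjusted p = 0.343) and -0.25 (adjusted p = 0.031) on the 2 scales. The dimmer Atp5l probe set changed by -0.78 and -0.68. In the fit on all 9 arrays the dimmer Cox4i1 probe set changed by 0.40 and 0.48. The share of all probe sets called on both scales is not given. The comparisons of both PI3K groups share the IGF1R arrays, so a member that is high or low on those 3 arrays appears in both.

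Between the hearts with active and with dominant negative PI3K, 0 of 81 members passed in either direction on the deposited scale, where 0.734% of all probe sets were higher and 0.506% lower, and 26 members (32.1%) had an unadjusted p under 0.05 in limma, as had 15.4% of all probe sets. Among the brightest 25% of all probe sets that share was 21.6%. The sign of the difference was negative, meaning lower with active PI3K, for 70 of the 81 members on the deposited scale and for 64 after quantile normalization, with medians of -0.26 and -0.10 beside 0.05 and 0.01 over all probe sets tested. Of all 7898 probe sets it was negative for 3406 and 3841 on the 2 scales, and of the 1975 brightest for 1056 and 968. After quantile normalization 1 member was lower with active PI3K and 0 higher, against 0.709% and 0.836% of all probe sets. That member was Atp5o, at -0.72 ± 0.21 (95% interval -1.19 to -0.26, adjusted p = 0.141) on the deposited scale and -0.48 ± 0.10 (adjusted p = 0.0357) after quantile normalization. Its call was lost when any IGF1R or IGF1R-caPI3K array or the second IGF1R-dnPI3K array was left out. With the first IGF1R-dnPI3K array left out, 8 members were lower with active PI3K on the deposited scale and 3 after quantile normalization. The shares of all probe sets in that fit are not given here, so these counts cannot be set against a background.

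Differences in log2 signal between 2 members on the same array do not depend on a single scale factor for that array, though they do depend on its spread, and they show unequal change of the pair, not which of them changed. The level of such a difference has no meaning across probe sets, so only its shift between groups is read. These 3 pairs were chosen after their values were seen, with no test. The log2 signal of Ndufv1 minus that of Ndufv2 was 0.02, 0.17 and -0.02 in the IGF1R hearts, 1.09, 0.81 and 0.81 in IGF1R-caPI3K and 0.81, 0.78 and 1.68 in IGF1R-dnPI3K. The difference between Cyc1 (brighter probe set) and Cycs was 2.21, 2.27 and 2.11 in IGF1R, 3.33, 3.02 and 3.24 in IGF1R-caPI3K and 3.22, 3.01 and 4.51 in IGF1R-dnPI3K. Cox6a2 minus Cox7b was 0.75, 0.88 and 0.62 in IGF1R, 1.78, 1.65 and 1.78 in IGF1R-caPI3K and 1.59, 1.51 and 2.44 in IGF1R-dnPI3K. In each pair the IGF1R hearts lay below all 6 hearts with a PI3K transgene, and the ranges of the 2 PI3K groups overlapped. The shift from IGF1R was 0.85, 1.00 and 0.99 for the 3 pairs in IGF1R-caPI3K and 1.03, 1.38 and 1.10 in IGF1R-dnPI3K on the deposited scale. After quantile normalization it was 0.79, 0.81 and 0.94 in IGF1R-caPI3K and 0.93, 0.99 and 0.95 in IGF1R-dnPI3K, and the third IGF1R-dnPI3K array gave 1.33, 3.98 and 2.09 for the differences themselves. The third IGF1R-dnPI3K array gave the highest difference in all 3 pairs. The Gapdh and CreX end ratios separate the same groups, and their part in these shifts was not tested.

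The 4 assembly factors among the members passed in no comparison on either scale, with log2 changes in IGF1R-dnPI3K between -0.36 and 0.12 on the deposited scale. Other genes of the mitochondrion that are no members were read from 5 lists. Of 17 further assembly factor probe sets, 1 was higher and 0 lower in IGF1R-dnPI3K on the deposited scale, Uqcc2, a complex III assembly factor (0.57, adjusted p = 0.0463), and 0 after quantile normalization. Of 20 probe sets for the tricarboxylic acid cycle and pyruvate dehydrogenase, 4 were higher and 2 lower on the deposited scale and 1 higher and 3 lower after quantile normalization. Idh2, the mitochondrial NADP-dependent isocitrate dehydrogenase, gave 10078, 8827 and 8481 in IGF1R, 9249, 10407 and 10463 in IGF1R-caPI3K and 14016, 16245 and 21912 in IGF1R-dnPI3K. Relative to IGF1R it rose in IGF1R-dnPI3K by 0.91 (adjusted p = 0.0112) and 0.57 (adjusted p = 0.00694), and lower in IGF1R-caPI3K than in IGF1R-dnPI3K by log2 changes of -0.77 (adjusted p = 0.0378) and -0.58 (adjusted p = 0.0136). Dld, the dihydrolipoamide dehydrogenase that pyruvate dehydrogenase and the cycle share, was lower by -0.57 (adjusted p = 0.0331) and -0.72 (adjusted p = 0.0184) in log2. The lowest change of that list came from a Sucla2 probe set (-1.95), while the brighter Sucla2 probe set gave 0.10. Of 18 probe sets for carriers, porins and cristae proteins, 1 was higher (Slc25a4, the heart adenine nucleotide carrier, 0.33 on the deposited scale and -0.04 after quantile normalization) and 2 lower (Vdac2 and a dimmer probe set for Ckmt2), with 0 and 3 after quantile normalization. Of 29 for protein import and chaperones, 4 were higher and 1 lower on both scales, among them Timm13 (1.04 and 0.89), the brighter probe set of Timm10b (0.82 and 0.85) and Timm44 (0.62 and 0.64), which serve protein import, and Pmpcb (-0.82 on both), a subunit of the presequence processing peptidase.

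Of 32 probe sets for transcriptional regulators of mitochondrial genes, 1 was higher and 1 lower in IGF1R-dnPI3K on the deposited scale and 2 higher and 1 lower after quantile normalization. The brighter of 2 probe sets for Esrra, the estrogen-related receptor alpha, gave 1949, 1627 and 1644 in IGF1R, 2550, 2286 and 2356 in IGF1R-caPI3K and 2233, 2386 and 2828 in IGF1R-dnPI3K. Both PI3K groups lay above IGF1R, with changes in IGF1R-dnPI3K of 0.51 (adjusted p = 0.0263) and 0.45 (adjusted p = 0.0296), whereas the dimmer probe set changed by 0.00 and 0.12. Ssbp1, the mitochondrial single-stranded DNA-binding protein, was lower (-0.61, adjusted p = 0.0281, and -0.51, adjusted p = 0.0474). Ppargc1a, the coactivator PGC-1 alpha, was dim, with signals between 86.5 and 158.1 on all 9 arrays, and passed in no comparison. In IGF1R-caPI3K over IGF1R, 0 probe sets of the 5 lists passed on the deposited scale, and after quantile normalization 1 assembly factor, Cox17, was lower (-0.45, adjusted p = 0.0366) and 2 import and chaperone probe sets were higher.

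The labelled tissue was checked against cell type markers, since bulk RNA cannot tell fewer cells of a type from less RNA per cell. All 9 ventricular cardiomyocyte markers measured were tested, with a summed signal of 156697 to 168327 in IGF1R, 167688 to 176839 in IGF1R-caPI3K and 181839 to 217812 in IGF1R-dnPI3K. Fibroblast markers (8 genes) summed to 36200 to 39793 in IGF1R, 39624 to 43918 in IGF1R-caPI3K and 27348 to 32675 in IGF1R-dnPI3K. Skeletal muscle markers (10 genes, of which 8 were bright enough to be tested) summed to 13818 to 14477, 19284 to 20846 and 5921 to 7473 in that order, so the 3 groups did not overlap. Macrophage and myeloid markers (8 genes, 6 tested) summed to 5856 to 6671, 6588 to 6737 and 3596 to 5459. Red blood cell markers (3 genes) summed to 16932 to 18215, 19053 to 21202 and 20611 to 36516. Their highest single signal was 35391.6, so 1 probe set made most of the highest sum. The median log2 change of these 3 over IGF1R was -0.19 in IGF1R-caPI3K and -0.13 in IGF1R-dnPI3K on the deposited scale, and 0 passed. Brown adipocyte markers, a tissue rich in these subunits, summed to 861 to 1003, 769 to 940 and 770 to 1284, and 2 of their 4 genes were bright enough to be tested. Their defining gene Ucp1 was at most 93.4 on every array. These sums are on the deposited scale. In IGF1R-dnPI3K over IGF1R, 4 of 10 cardiomyocyte probe sets were higher and 1 lower on that scale, but 0 higher and 3 lower after quantile normalization. On both scales 7 of 15 fibroblast, 3 of 8 macrophage and 3 of 8 skeletal muscle probe sets were lower. Of the same lists, 2 fibroblast probe sets were higher on the deposited scale and 1 after quantile normalization. For skeletal muscle 1 was higher on both scales, and for macrophages 0. The part of these markers in the results was not tested.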

How the data were processed

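Gene expression was measured on 9 Affymetrix arrays of ventricular total RNA, 3 groups of 3 mice. The values are the authors' deposited signals, an intensity on a linear scale. The method of summary and scaling was not given in the sources used here. The 2% trimmed mean of 500.3 to 500.4 on every array shows a common target. With 3 arrays a group, the number of arrays sets the precision. The members and lists were chosen with earlier results of these data known.

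Of 12488 probe sets, 66 controls were left out. A platform annotation, which can be old, gave 1 gene symbol for 10833 probe sets, several for 396 and none for 1193. Signals were floored at 32.4 (the 20th percentile of positive values) and log2 transformed, and a probe set was kept if its signal exceeded its array's 40th percentile on 3 or more arrays (7898 kept; 0.346% of tested values were at or below the floor). Groups were compared with lmFit and eBayes(trend) of limma 3.58.1 (R 4.3.3, statmod 1.5.0) over all 9 arrays, with Benjamini-Hochberg adjustment over all 7898 and a threshold of 0.05. The same fit was run after quantile normalization between arrays. Errors of log2 changes are standard errors from limma. Probe sets whose names end in _f_at, _g_at, _i_at, _r_at or _s_at were all treated as ones that may match several transcripts, though these endings need not mean the same. The fit was tested on simulated data.

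Named members are, per complex and comparison, up to 5 with the largest change among those passing on the deposited scale, all passing on both scales, those passing in the less common direction, genes with opposed probe sets, and a set of core subunits and isoform pairs; other members named beside them were chosen after their values were seen. From the other mitochondrial lists up to 4 per comparison that passed are named, and further genes of those lists were likewise chosen after their values were seen. Replicates are single mice, and replicate numbers follow the deposit order. Alternatives were other normalizations, floors, filters and variance models, fits with fewer groups or arrays, and the series of mouse numbers as a block.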

Additional observations from a re-analysis of the deposited data

How the results depend on the processing

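No paired analysis was possible because each mouse number belongs to 1 mouse and replicate numbers only follow the deposit order. Counts of members below are higher and lower calls. They are given without the shares of all probe sets in each fit, so they do not show how far members differ from the rest. For IGF1R-dnPI3K over IGF1R (29 and 3), quantile normalization gave 15 and 8, cyclic loess 15 and 7, no filter 7 and 1, and a fit without trend 18 and 2. Only the 2 groups gave 5 and 1, and 7 and 4 with quantile normalization. Quantile normalization without the third IGF1R-dnPI3K array gave 13 and 7. Leaving out 1 array gave 2 to 38 and 0 to 5. The series of mouse numbers as a block leaves 1 IGF1R-dnPI3K array to this comparison, so its counts are not given. For IGF1R-caPI3K over IGF1R (0 and 0), quantile normalization gave 4 lower, a floor at the 40th percentile 1 lower, array weights 11 and 8, only the 2 groups 14 and 9, quantile normalization with only the 2 groups or without the third IGF1R-dnPI3K array 6 and 14, and leaving out 1 array 0 to 11 and 0 to 9. For IGF1R-caPI3K over IGF1R-dnPI3K (0 and 0), lower calls were 1 after quantile normalization with or without that array and after cyclic loess, 7 with array weights, and 0 to 8 leaving out 1 array. On the quantile normalized scale itself, only the 2 groups gave 6 and 14, 7 and 4, and 0 lower for the comparisons in that order, and dropping probe sets that may share targets gave 1 higher in the first; leaving out 1 array gave 0 to 6 and 0 to 14, 8 to 15 and 2 to 9, and 0 to 3 lower. Sdhc (0.06 in IGF1R-dnPI3K) reversed to -0.30 with quantile normalization, also with only the 2 groups. It was -0.34 with that normalization and without the third array, and -0.26 with cyclic loess. With the mouse number block it was -0.21, which rests on 1 IGF1R-dnPI3K array. Leaving out 1 array gave -0.10 to 0.21. The causes were not tested, beyond fewer arrays or more probe sets in the fit. Depth is not defined for arrays; dim members were not tested.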
